A study of Homo sapiens with 18 samples.

Results

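The effect of a METTL3 CRISPR construct on RNA levels was compared between 2 breast epithelial cell lines, MCF10A and MCF10AT1. Of the 35933 genes with values in the deposited table, 16046 averaged 10 or more across the 12 libraries used, and each of them was given a difference of effects: the log2 change with METTL3 CRISPR in MCF10AT1 minus the log2 change in MCF10A. The change within a line is called its effect, and all values are on the log2(normalized count + 1) scale, which understates the change of genes with low values. MCF10A is a spontaneously immortalised, non-tumorigenic human breast line with basal-like features, and MCF10AT1 was made from it by stable introduction of a mutated HRas. In each line 3 libraries (a, b and c) carried the genotype label for METTL3 CRISPR and 3 the label for the negative control CRISPR, so that the control cells also went through transfection with a Cas9 construct. The construct was aimed at the first exon of METTL3, the transfected cells were sorted on mCherry, and single-cell clones were grown, so each group stands for 1 clone and its libraries are not independent edits. All cells were kept in DMEM/F12 with horse serum, insulin, hydrocortisone, cholera toxin and epidermal growth factor.

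METTL3 is the catalytic subunit of the complex that places N6-methyladenosine (m6A) on messenger RNA, with METTL14 as its partner and WTAP as an adaptor. The mark is read by YTH domain and other proteins that alter the splicing, export, translation and decay of the RNAs that carry it. Epithelial cells are held in a sheet by cadherins, desmosomes and tight junctions and anchored by hemidesmosomes. In the epithelial to mesenchymal transition these contacts are lost and vimentin, N-cadherin and matrix proteins are made instead, under factors of the SNAI, ZEB and TWIST families.

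The targeted gene was examined first. METTL3 (chr14:21498133-21511342, minus strand, hg38) was measured at 752, 686 and 459 normalized counts in the control libraries of MCF10A and at 939, 981 and 509.8 with METTL3 CRISPR. In MCF10AT1 it was measured at 968, 1016 and 805 in the controls and at 816, 752 and 902 with METTL3 CRISPR. The groups overlapped in both lines. The effect was 0.33 ± 0.28 (SE, n = 3 and 3) in MCF10A and -0.17 ± 0.28 in MCF10AT1. Each SE here and below comes from 1 spread per gene over all 12 libraries, so it is the same in both lines. The difference of -0.50 ± 0.40 did not pass (limma, Benjamini-Hochberg adjusted p = 0.454; exact permutation of the labels within lines, two-sided p = 0.24 over 400 arrangements, where 0.005 is the smallest p possible). The RNA level therefore does not separate the labelled genotypes, and an edit that leaves the RNA in place cannot be seen in these values. METTL14 (difference -0.17 ± 0.68) and WTAP (0.26 ± 0.44) did not pass either. Of the 9 genes tested of the writer complex and the 11 of the erasers and readers, 0 had a called difference by limma, where 14.4% of all tested genes had one, so that lists of this size would hold few or no calls at that share.

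The libraries did not stand at equal distances. The MCF10AT1 METTL3 CRISPR group was 1.56 root-mean-square log2 units from its own control, whereas the MCF10A METTL3 CRISPR group was 0.753 from its control. The same MCF10AT1 METTL3 CRISPR group was 1.48 from the negative control of MCF10CA1h, another line of the series, which was raised from MCF10AT1 and is otherwise not used here, and 1.56 from MCF10CA1h METTL3 CRISPR. The controls of MCF10AT1 and MCF10CA1h were 1.25 apart. EMD, the gene of the inner nuclear envelope protein emerin (chrX:154379273-154381574, plus strand), was at 1400.1, 1582 and 1181 in the MCF10AT1 controls and at 1.00, 0 and 3.31 with METTL3 CRISPR. EMD lay between 1065 and 1533 in all 6 MCF10A libraries and at no more than 1.33 in all 6 MCF10CA1h libraries. The libraries labelled MCF10AT1 METTL3 CRISPR thus lacked an RNA that their parental line held and that the next line of the series also lacked. At the same time CDH1, described below, was at 2974 to 4179 in MCF10CA1h and at no more than 79.2 in the MCF10AT1 METTL3 CRISPR libraries. The identity of the libraries labelled MCF10AT1 METTL3 CRISPR is therefore in doubt and was not tested, and with 1 clone per group the clone, its passage and the edit cannot be told apart. Every direction given below for MCF10AT1 rests on these 3 libraries. By Western blot the paper reported substantial loss of METTL3 protein in both of its MCF10AT1 knockdown lines, and it also reported lower m6A. In MCF10A it reported a loss of protein that was clearer in 1 knockdown line, and a decrease of m6A that was not significant. By PCR it reported lower METTL3 RNA in the knockdown lines, a smaller effect than on the protein. In both MCF10AT1 knockdown lines its PCR gave more N-cadherin, MMP2 and vimentin RNA. In both MCF10A knockdown lines its PCR gave more MMP2 RNA and less N-cadherin and vimentin RNA. For each parental line only 1 knockdown line was sequenced. Sums of normalized counts ran from 21347352 to 31681834 per library, and the median SD over replicates was 0.326 log2 units in the MCF10A controls, 0.254 in MCF10A METTL3 CRISPR, 0.549 in the MCF10AT1 controls and 0.429 in MCF10AT1 METTL3 CRISPR.

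The labelled cell type held in part. KRT5, the basal keratin, lay between 98452 and 192669 in all MCF10A libraries and between 36863 and 48735 in the MCF10AT1 controls. In the MCF10AT1 METTL3 CRISPR libraries it was at 5540.2, 2771 and 824. The simple keratins KRT8 and KRT18 were present in every library, KRT8 at no less than 2867 and KRT18 at no less than 9379.9. Summed fibroblast markers were at 2823 to 4584 in MCF10AT1 METTL3 CRISPR against 470 to 740.0 in its controls, 1782 to 2176 in MCF10A controls and 1465 to 4424 in MCF10A METTL3 CRISPR. Of the 6 tested, 3 (FAP, COL3A1 and THY1) had a called higher difference and 2 a called higher effect in MCF10AT1. FAP overlapped in MCF10AT1 and had neither effect called, with 206, 494 and 699 against 53.1, 83.2 and 174 in MCF10A. Over all tested genes 7.39% had a called higher difference and 7.02% a lower one. Blood cell markers summed to 2849 to 3353 in MCF10AT1 METTL3 CRISPR against 891 to 1774 in its controls, 241 to 691 in MCF10A controls and 316 to 502 in MCF10A METTL3 CRISPR, with 2 of 5 tested called higher and 0 lower. Most of the sum in MCF10AT1 METTL3 CRISPR was CD14, at 2342, 1745 and 2138. LAPTM5 was at 5.14, 10.45 and 11.9 in the MCF10AT1 controls and at 296, 228 and 239 with METTL3 CRISPR. ITGB2 was at 357, 337 and 343 against 650, 834 and 610, while CORO1A and CD79A overlapped between the MCF10AT1 groups. The leukocyte markers PTPRC, CD53, CD3E and LYZ were at 0 in all 3 MCF10AT1 METTL3 CRISPR libraries and at no more than 2.12 in the MCF10AT1 controls. Of 8 luminal markers tested 3 had a called lower difference and 0 a higher one, and of 10 basal markers 6 were lower and 1 higher. Of the other marker lists, endothelium had 0 called of 2 tested, smooth muscle and pericyte 1 higher and 1 lower of 7, and melanocyte and nerve 2 higher and 1 lower of 4. The part of these markers in the results was not tested. In bulk cultures fewer cells of a type and less RNA per cell cannot be told apart.

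The difference of effects was called for 2311 genes, 14.4% of those tested, with 1185 higher (7.39%) and 1126 lower (7.02%) in MCF10AT1 than in MCF10A. METTL3 CRISPR had a called effect on 3779 genes in MCF10AT1 (23.6%), 1863 of them higher (11.6%) and 1916 lower (11.9%). In MCF10A it had a called effect on 205 genes (1.28%), 78 higher (0.486%) and 127 lower (0.791%). The values of the control and METTL3 CRISPR libraries did not overlap for 5173 genes in MCF10AT1 (32.2%) and for 3764 in MCF10A (23.5%). By both within-line effects and the difference, 52 genes were opposed (0.324%), that is called in both lines with opposite sign, and 61 were shared (0.38%), called in both with the same sign. A further 1973 genes had a called difference and an effect in MCF10AT1 only (12.3%), and 64 had a called difference and an effect in MCF10A only (0.399%). For 208 genes the difference was called although neither line's own effect was. With the letter a, b or c as a block within each line, 3395 differences were called (1714 higher, 1681 lower), with 137 opposed, 134 shared, 2795 MCF10AT1 only and 151 MCF10A only. All 4 groups share 1 spread per gene in the main fit, although the MCF10A libraries varied less. With a variance per group 157 genes were opposed, 120 shared, 1451 MCF10AT1 only and 208 MCF10A only. Whether an MCF10A effect passed thus depended in part on the shared spread.

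**Figure D1:**
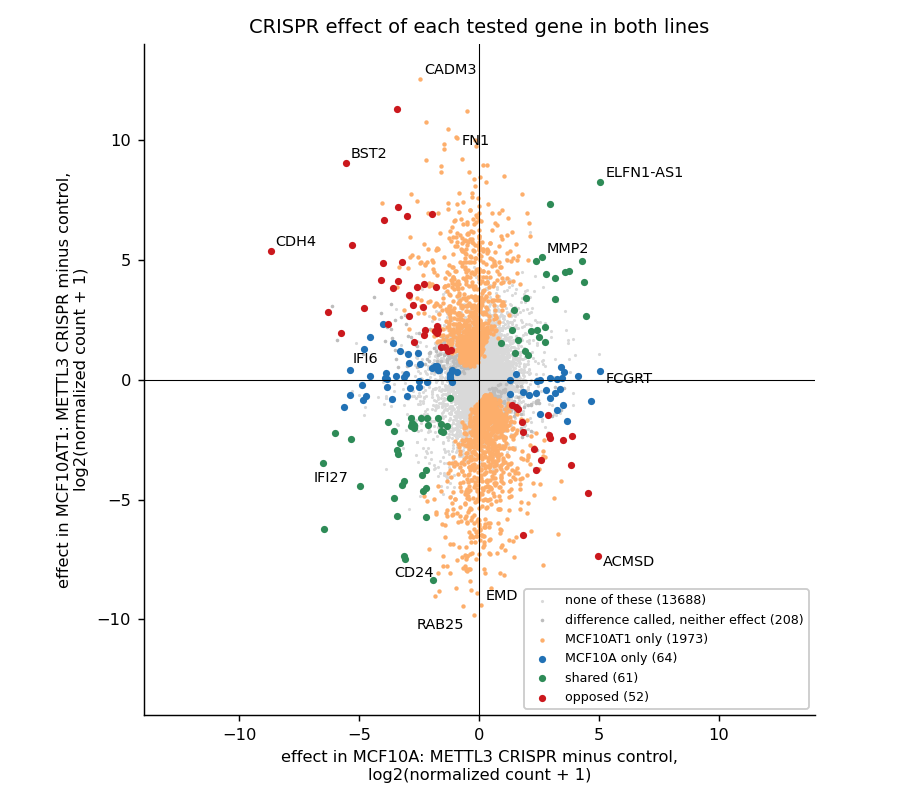
Each point is 1 of the 16046 tested genes, with the log2 effect of METTL3 CRISPR in MCF10A on the horizontal axis and in MCF10AT1 on the vertical axis; colours give the class from the limma calls. The 1973 MCF10AT1 only genes spread along the vertical axis, and the 52 opposed genes lie in the upper left (35) and lower right (17).

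The median absolute difference was 6.06 for the opposed genes, 3.27 for the MCF10A only genes, 2.69 for the MCF10AT1 only genes and 0.924 for the shared genes, against 0.713 over all tested genes. The classes were made from these values, so the order is a description. In 1666 of the 1973 MCF10AT1 only genes the gap between the lines was larger among the METTL3 CRISPR libraries than among the controls. The same held for 40 of the 52 opposed genes and for 10766 of all 16046. In the shared class it was so for 25 of 61. Values were low for part of the calls. Of all tested genes 415 reached a mean of 10 in only 1 of the 4 groups, and 188 of these were among the 2311 called. For 158 of the 188 the group was MCF10AT1 METTL3 CRISPR. Such genes passed the filter through the group where they are high, so their calls were in part built in. COL3A1, COL6A2, BMP7, ACKR1 and ICAM1, named below, are of this kind and stay in the list counts. CADM3, CSF3, THY1, CDH2 and ATOH8 also had a mean of 10 in MCF10A controls, but of no more than 16.55 in any group besides MCF10AT1 METTL3 CRISPR. They too passed the filter through that group, so the same limit holds for their calls.

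Genes with opposed effects included antiviral, adhesion, transport and signalling genes. In 35 of them the RNA fell in MCF10A and rose in MCF10AT1, and in 17 it rose in MCF10A and fell in MCF10AT1. Which genes stand in this class depended on single MCF10A libraries: leaving out control b, control c, or METTL3 CRISPR a, b or c left 27, 21, 20, 24 and 25 opposed genes.

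BST2 encodes tetherin, an interferon-induced membrane protein that holds budding virus at the cell surface (chr19:17402939-17405630, minus strand). It was at 1077, 256 and 568 normalized counts in the MCF10A controls and at 14.9, 8.83 and 8.83 with METTL3 CRISPR. In MCF10AT1 it was at 52.3, 20.1 and 27.8 in the controls and at 24515, 18959.6 and 9966 with METTL3 CRISPR. The groups did not overlap in either line, and the METTL3 CRISPR libraries of MCF10AT1 were above every other library. The effect was -5.55 ± 0.53 in MCF10A and 9.03 ± 0.53 in MCF10AT1, a difference of 14.58 ± 0.74 (limma, adjusted p = 4.21e-07).

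CDH4, the gene of R-cadherin, a classical cadherin of nerve, kidney and muscle, was at 402, 654 and 760.3 in the MCF10A controls and at 1.78, 0 and 0 with METTL3 CRISPR. In MCF10AT1 the controls held 1.84, 6.96 and 1.68 and the METTL3 CRISPR libraries 60.1, 318 and 212. No groups overlapped within a line, and the order of the lines was reversed between control and METTL3 CRISPR; the difference was 14.06 ± 0.97 (adjusted p = 2.2e-06). PRSS21, the gene of the membrane-anchored serine protease testisin, was measured at 121, 62.7 and 53.1 in the MCF10A controls and at 0, 1.64 and 1.61 with METTL3 CRISPR. The MCF10AT1 controls held 96.6, 43.8 and 47.2, close to those of MCF10A, and the METTL3 CRISPR libraries 3181, 3006 and 2621. The control levels of the lines overlapped for PRSS21, unlike those for CDH4, and its difference was 10.92 ± 0.68 (adjusted p = 9.66e-07).

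ATOH8, a basic helix-loop-helix factor, had control values of 14.9, 24.7 and 8.85 in MCF10A and 11.5, 4.65 and 2.71 in MCF10AT1. It was at 0 in all 3 METTL3 CRISPR libraries of MCF10A and at 1238, 559.6 and 386 in those of MCF10AT1 (difference 10.65 ± 0.85, where the zeros make the MCF10A effect depend on the pseudocount). SLC2A3, the high-affinity glucose transporter GLUT3, was at 813, 907 and 885 in the MCF10A controls and at 26.8, 113 and 39.8 with METTL3 CRISPR. Its MCF10AT1 values were 4.12, 37.6 and 62.7 in the controls and 362, 416 and 482 with METTL3 CRISPR, a difference of 8.27 ± 1.08. In both lines the higher group lay several-fold above the lower one with no overlap.

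Secreted and matrix proteins were also among the genes lower in MCF10A and higher in MCF10AT1. COL6A1, a chain of the microfibrillar collagen VI, went from 66.5, 34.5 and 51.8 to 16.5, 14.6 and 7.07 in MCF10A and from 66.5, 41.1 and 77.0 to 6809, 7015 and 8312 in MCF10AT1 (difference 8.87 ± 0.54). IGFBP3, a binding protein of the insulin-like growth factors, went from 283, 544 and 829.8 to 177, 105 and 56.5 in MCF10A and from 352, 165 and 249.7 to 3753, 3282 and 4958 in MCF10AT1 (6.30 ± 0.65). ID1, an inhibitor of helix-loop-helix factors and a target of BMP signalling, went from 4180.4, 5349 and 5139 to 1959, 1911 and 1517 in MCF10A and from 2037, 2728 and 1202 to 4968, 3932 and 5621 in MCF10AT1 (2.79 ± 0.39). The change of COL6A1 was much larger in MCF10AT1, at 6.92 ± 0.38, than in MCF10A, at -1.95 ± 0.38, whereas ID1 changed by -1.45 ± 0.28 and 1.35 ± 0.28.

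ACMSD was among the 17 genes that rose in MCF10A and fell in MCF10AT1. This gene, an enzyme of the kynurenine pathway of tryptophan breakdown, was at 0, 2.45 and 1.86 in the MCF10A controls and at 75.7, 68.5 and 52.4 with METTL3 CRISPR. In MCF10AT1 it was at 210.2, 341 and 139 in the controls and at 0, 0 and 1.21 with METTL3 CRISPR, so that the difference was -12.31 ± 0.84 (adjusted p = 2.07e-06). PPARGC1A, a coactivator of mitochondrial biogenesis, was at 71.2, 96.3 and 32.4 in the MCF10A controls and 694, 667 and 734 with METTL3 CRISPR. Its MCF10AT1 values were 302, 106 and 524 against 102, 19.0 and 44.3, and the difference was -6.01 ± 0.92. The MCF10AT1 groups of PPARGC1A were near each other, at 106 for the lowest control and 102 for the highest METTL3 CRISPR library.

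DUOX1, an oxidase that makes hydrogen peroxide at epithelial surfaces, was at 82.3, 80.9 and 82.0 in the MCF10A controls and at 513, 434 and 525 with METTL3 CRISPR, and in MCF10AT1 at 234, 249 and 162 against 34.0, 11.4 and 20.2 (difference -5.91 ± 0.52). The 3 MCF10A controls of DUOX1 were nearly equal, and both lines separated fully. BLNK, an adaptor of B-cell receptor signalling, was at 48.7, 32 and 16 against 234, 103 and 163 in MCF10A and at 185, 75.8 and 173 against 9.83, 8.45 and 8.41 in MCF10AT1 (-6.17 ± 0.70). The long noncoding RNA LINC03080 had a difference of -7.39 ± 1.10, with 11.3, 7.14 and 11.9 against 146, 109 and 228 in MCF10A and 17.0, 5.98 and 75 against 0, 0.66 and 2.45 in MCF10AT1. SFRP1, a secreted inhibitor of WNT ligands, was at 2997, 2946 and 1015 against 7404, 7272 and 7742 in MCF10A and at 2368, 2043 and 2933 against 663, 562 and 402 in MCF10AT1 (-4.03 ± 0.51). In these 4 genes neither line's groups overlapped.

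**Figure D2:**
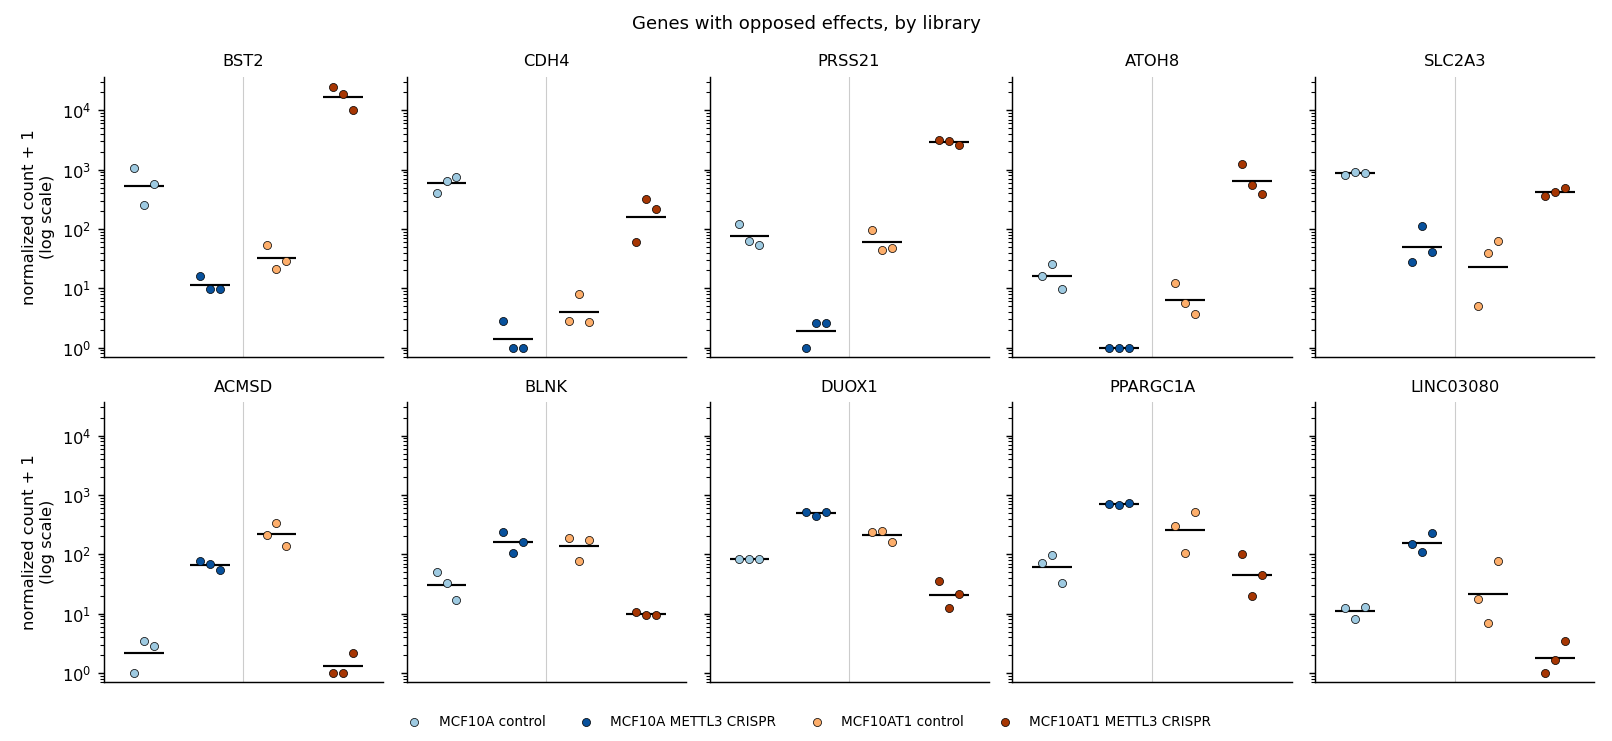
Normalized counts + 1 on a log axis for 10 opposed genes in each of the 12 libraries; points are libraries and the short lines are geometric means of the 4 groups. BST2, CDH4, PRSS21, ATOH8 and SLC2A3 fall in MCF10A and rise in MCF10AT1, and ACMSD, BLNK, DUOX1, PPARGC1A and LINC03080 do the reverse.

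Interferon-stimulated genes had median effects of opposite sign in the lines. Of 32 tested, 12 had a called higher difference and 0 a lower one (limma; background 7.39% and 7.02%). In MCF10A 5 had a called lower effect and 0 a higher one (background 0.791% and 0.486%). In MCF10AT1 6 had a called higher effect and 3 a lower one, where 11.6% and 11.9% of all tested genes did, so that little is read from the MCF10AT1 counts alone. The median effect was -1.35 in MCF10A and 0.341 in MCF10AT1, and the median difference was 2.36 against -0.009 over all tested genes. The difference was positive for 28 of the 32. By class, 1 was opposed (BST2), 1 shared (IFI27), 5 MCF10AT1 only, 3 MCF10A only, and 3 had a called difference with neither line's effect called. The MCF10A count rested on single libraries. Without MCF10A control b 10 interferon-stimulated genes were lower in MCF10A, without control c or METTL3 CRISPR a 2 were, and without METTL3 CRISPR b or c 3 were. With the letter block within lines 15 differences were higher and 9 genes were lower in MCF10A.

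Many promoters of interferon-stimulated genes carry an interferon-stimulated response element. The 4 promoters printed here belong to an opposed gene (BST2), an MCF10A only gene of the same list with 3 matches (IFI6), another with 2 (IFIT1) and a gene that fell in both lines (IFI27). They are the 250 bases before the first RefSeq start (GRCh38.p14) on the transcript's strand, and the capitals mark matches to GAAANNGAAA or its reverse complement TTTCNNTTTC, which overlap in BST2.
BST2, chr19:17405631-17405880, minus strand: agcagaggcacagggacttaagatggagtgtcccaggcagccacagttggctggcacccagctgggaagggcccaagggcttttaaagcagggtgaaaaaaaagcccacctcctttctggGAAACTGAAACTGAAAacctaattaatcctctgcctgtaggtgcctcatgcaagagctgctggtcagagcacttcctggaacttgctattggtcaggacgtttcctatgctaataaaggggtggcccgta
IFI6, chr1:27672193-27672442, minus strand: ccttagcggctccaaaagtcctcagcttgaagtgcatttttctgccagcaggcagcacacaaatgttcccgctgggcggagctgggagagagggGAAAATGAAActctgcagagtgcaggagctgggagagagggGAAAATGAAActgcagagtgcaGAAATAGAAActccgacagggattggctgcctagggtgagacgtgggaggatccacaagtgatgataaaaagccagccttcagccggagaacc
IFIT1, chr10:89392373-89392622, plus strand: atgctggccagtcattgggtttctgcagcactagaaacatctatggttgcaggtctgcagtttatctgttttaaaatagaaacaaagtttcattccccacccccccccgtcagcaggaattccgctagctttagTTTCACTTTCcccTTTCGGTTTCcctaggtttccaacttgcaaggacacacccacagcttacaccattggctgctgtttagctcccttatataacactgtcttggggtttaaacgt
IFI27, chr14:94110486-94110735, plus strand: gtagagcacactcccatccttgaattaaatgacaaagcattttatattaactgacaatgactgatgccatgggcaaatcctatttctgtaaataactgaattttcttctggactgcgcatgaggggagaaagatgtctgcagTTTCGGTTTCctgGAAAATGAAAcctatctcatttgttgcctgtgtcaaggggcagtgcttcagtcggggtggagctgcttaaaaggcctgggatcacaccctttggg

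On either strand, within 250 bases before to 50 after the start, these letters were found in 18 of the 25 interferon-stimulated genes with a promoter in the table (72.0%), in 5 of 15 genes of interferon signalling and antigen presentation (33.3%) and in 2.85% of all 11309 promoters matched to tested genes. Of the 18 with a match 7 had a called difference and 11 had not, and of the 7 without one 2 had a called difference and 5 had not. A match is a description of the letters, and the 4 printed genes with matches changed in different ways.

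IFI6, an interferon-induced mitochondrial protein, was at 1678, 98.3 and 1639.7 in the MCF10A controls and at 11.8, 13.4 and 19.5 with METTL3 CRISPR. In MCF10AT1 it was at 74.5, 204 and 102 in the controls and at 310.1, 177 and 63.7 with METTL3 CRISPR. Control b stood well below controls a and c in MCF10A and still above all METTL3 CRISPR libraries, while the MCF10AT1 groups overlapped (effects -5.38 ± 0.94 and 0.39 ± 0.94, difference 5.77 ± 1.32, adjusted p = 0.012). IFIT1, which binds viral RNA that lacks cap methylation, also had its lowest MCF10A control in b, with 272, 58.5 and 359.5 against 2.79, 7.53 and 8.52. Its MCF10AT1 values were 29.8, 51.3 and 68.6 against 68.2, 22.6 and 15.9, and the difference was 4.07 ± 1.03. OASL, an antiviral relative of the oligoadenylate synthetases, was at 179, 68.8 and 219.6 against 19.7, 8.49 and 13.5 in MCF10A, with a difference of 4.51 ± 0.92 and an MCF10AT1 effect of 1.21 ± 0.65 that did not pass. IFI27, a mitochondrial and nuclear membrane protein, fell in both lines, from 1301, 83.0 and 1388 to 2.22, 8.05 and 5.75 in MCF10A and from 121, 168 and 152 to 13.3, 16.4 and 8.61 in MCF10AT1.

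The interferon genes that moved in MCF10AT1 only included UBE2L6 and IFITM1. UBE2L6, the enzyme that conjugates ISG15 to proteins, was at 23.4, 14 and 22.6 in the MCF10AT1 controls and at 3983, 2883 and 1906 with METTL3 CRISPR. It was between 9.08 and 56.5 in every MCF10A library, and the difference was 7.47 ± 0.82. IFITM1, which blocks viral entry, was at 609, 200.04 and 300.1 against 13798, 11214 and 11599 in MCF10AT1 and at 1039, 42.0 and 241 against 76.5, 8.59 and 40.2 in MCF10A, where the groups overlapped (difference 8.01 ± 1.38). IFIT3, a partner of IFIT1, had a called difference of 3.22 ± 0.81 with neither line's effect called. ISG15 (3.24 ± 1.18, adjusted p = 0.0933) and MX1 (0.40 ± 0.95) did not pass.

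**Figure D3:**
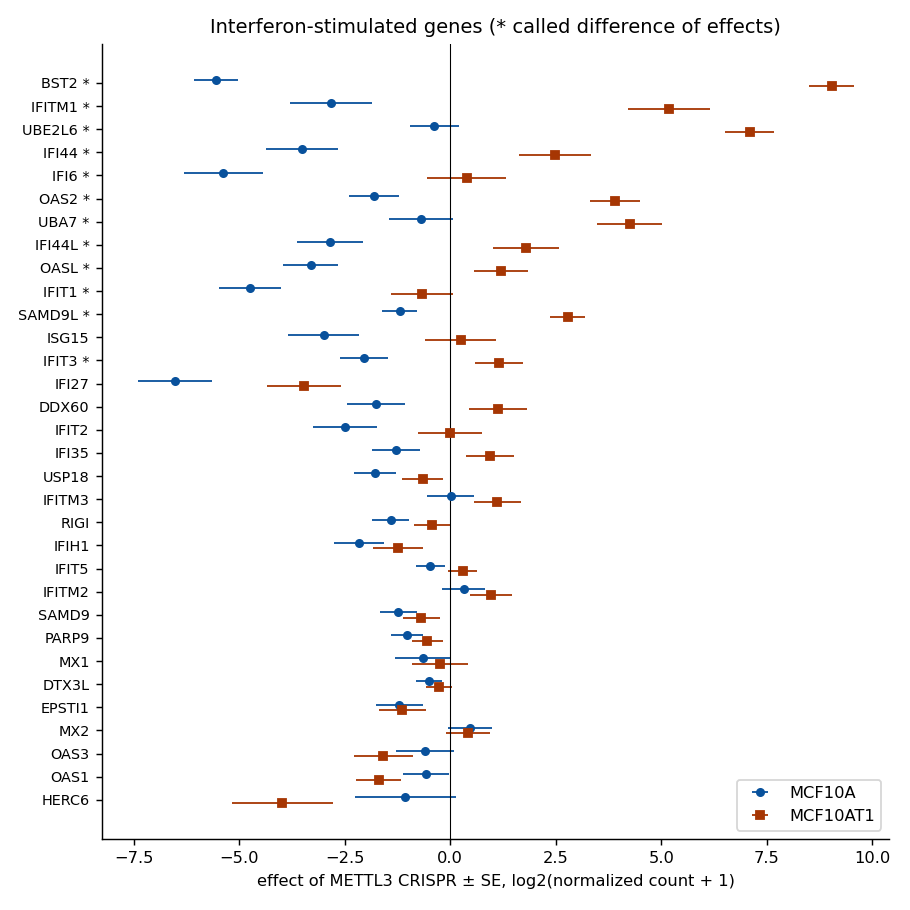
Log2 effect of METTL3 CRISPR ± SE in MCF10A and in MCF10AT1 for the 32 tested interferon-stimulated genes, where an asterisk marks a called difference (12 genes). BST2 stands apart with -5.55 in MCF10A and 9.03 in MCF10AT1, and IFI27 is below 0 in both.

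Of the 21 genes of interferon signalling and antigen presentation, 7 had a called higher difference and 0 a lower one (limma). HLA-B, a heavy chain of MHC class I, was at 1621, 1204 and 729 in the MCF10AT1 controls and at 5333, 4571 and 4743 with METTL3 CRISPR, and its MCF10A groups overlapped at 1545, 548 and 974 against 598, 168 and 362 (difference 3.61 ± 0.66). B2M, the light chain of class I, rose in MCF10AT1 as well, by 1.41 ± 0.28, with a difference of 1.68 ± 0.40. PSMB9, a subunit of the immunoproteasome, had a difference of 3.75 ± 0.98, which did not pass in 7 of 23 alternative settings. IRF7, a factor that amplifies interferon production, was instead an MCF10A only gene, at 244, 63.6 and 268 against 29.3, 35.3 and 18.7 (difference 3.66 ± 0.71). IRF1 (1.13 ± 0.61) and TAP1 (0.05 ± 0.36), the latter of which carries peptides into the endoplasmic reticulum, did not pass.

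Genes that fell in MCF10AT1 and did not pass in MCF10A included most of the epithelial identity genes. The background of the list counts of the difference is 7.39% higher and 7.02% lower over all tested genes. Of 20 epithelial identity genes tested, 15 had a called lower difference and 1 (GRHL3) a higher one. The median effect was -0.044 in MCF10A and -3.96 in MCF10AT1. RAB25, a small GTPase of epithelial vesicle recycling (chr1:156061160-156070504, plus strand), was at 2054, 1274 and 1010.0 in the MCF10A controls and 1247, 1102 and 1215 with METTL3 CRISPR, which overlapped. Its MCF10AT1 values were 3449.6, 4741 and 2037 in the controls and 2.02, 1.76 and 4.50 with METTL3 CRISPR (difference -9.59 ± 0.53, adjusted p = 4.89e-07).

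ESRP1, a splicing regulator of epithelial isoforms, was at 2716, 1584 and 2606 against 0, 25.4 and 2.98 in MCF10AT1 and lay between 3034 and 4772 in MCF10A (difference -8.80 ± 1.16). GRHL2, a factor that maintains epithelial gene expression, was at 587, 383 and 963 against 0.92, 32.6 and 0.98 in MCF10AT1 (-7.86 ± 1.21). METTL3 CRISPR b held more of both RNAs than a and c. EPCAM, an epithelial adhesion molecule, was at 4291, 3494 and 3572 against 78.8, 115 and 126 (-4.58 ± 0.44). TP63, the basal epithelial factor, did not move with them: its difference was 0.65 ± 0.77, with MCF10AT1 values of 216, 111 and 745 against 517, 411 and 749. By difference alone, FXYD3, a regulator of the sodium pump that was at 21467, 24389 and 8736 against 41.0, 35.0 and 41.0 in MCF10AT1, was also among the genes furthest down (-9.19 ± 0.53), as were the endocytic adaptor EPN3 (-10.41 ± 0.99) and ART3, a member of the ADP-ribosyltransferase family (-9.72 ± 1.25). In MCF10A the effects of EPN3 (2.68 ± 0.70) and ART3 (3.29 ± 0.89) were above 0 and did not pass.

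The repressors of epithelial genes bind the E-box CAGGTG, or CACCTG on the other strand. The RAB25 promoter is printed because this RNA was nearly lost in MCF10AT1 and its window holds such a match, in capitals, at 41 bases before the start; the 250 bases before the first RefSeq start are shown (GRCh38.p14).
RAB25, chr1:156060910-156061159, plus strand: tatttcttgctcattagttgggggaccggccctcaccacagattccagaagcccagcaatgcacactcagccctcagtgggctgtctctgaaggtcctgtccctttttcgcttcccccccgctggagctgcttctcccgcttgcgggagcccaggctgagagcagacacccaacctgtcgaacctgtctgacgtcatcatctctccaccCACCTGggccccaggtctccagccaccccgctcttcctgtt

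The E-box letters were found in 4 of 10 promoters of epithelial identity genes (40.0%), 3 of 8 of tight junction genes (37.5%) and 3 of 6 of desmosome genes, against 18.7% of all 11309. The MCF10AT1 only class held them in 24.2% of 1407 promoters, the opposed class in 23.7% of 38, and the shared and MCF10A only classes in 26.8% of 41 each. All 4 epithelial identity genes with a match had a called difference, higher for GRHL3 and lower for the other 3, as did 3 of the 6 without one, and these counts are too small to read an order from.

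Of 9 transcription factors of the epithelial to mesenchymal transition tested, 3 had a called higher difference (TWIST2, FOXC2 and SNAI1) and 0 a lower one. FOXC2 was at 239, 319.6 and 407 against 760.1, 875 and 1409 in MCF10AT1 (difference 2.3 ± 0.46), and the calls of SNAI1 (3.14 ± 0.92) and TWIST2 (1.67 ± 0.49) were lost in 12 and 13 of 23 alternative settings. SNAI1 overlapped in MCF10AT1, at 464, 172 and 348 against 745, 364 and 318. In MCF10A it was near the floor, at 17.85, 9.03 and 15.9 against 5.44, 1.23 and 0, and neither line's effect was called. The count of the list was 1 without MCF10A control a, MCF10A control c, MCF10A METTL3 CRISPR c or MCF10AT1 METTL3 CRISPR a or b, and 5 with the letter block within lines. ZEB1 was at 1.36, 1.28 and 41.0 in the MCF10AT1 controls and at 46.9, 33.6 and 148 with METTL3 CRISPR. These groups overlapped, and the difference of 4.20 ± 1.35 did not pass (adjusted p = 0.0572), nor did that of ZEB2 (3.03 ± 1.16). SNAI2, a basal epithelial and mesenchymal factor, was lower in MCF10AT1 with METTL3 CRISPR (-2.44 ± 0.47), with a difference of -1.94 ± 0.66 that did not pass, and TWIST1 had a difference of -0.07 ± 0.44.

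Of 9 cadherins and catenins tested, 3 had a higher difference (CDH2, CDH4 and CDH11) and 4 a lower one (CDH1, CDH3, CTNND1 and JUP). CDH1, the gene of E-cadherin (chr16:68737292-68835537, plus strand), was at 4836, 8321 and 7843 in the MCF10A controls and 6289, 5209 and 6535 with METTL3 CRISPR. The MCF10AT1 controls held 3475, 2105 and 6138 and the METTL3 CRISPR libraries 11.6, 31.7 and 79.2. The MCF10A groups overlapped and the MCF10AT1 groups did not (difference -6.61 ± 0.78, adjusted p = 0.000153). CDH2, the gene of N-cadherin, was at 0.72, 0 and 4.1 in the MCF10AT1 controls and at 243, 362 and 468 with METTL3 CRISPR, and between 6.24 and 14.5 in every MCF10A library (8.06 ± 0.81). VIM, the intermediate filament of mesenchymal cells, was at 3055, 4639.8 and 4069 against 57647, 70635 and 69297 in MCF10AT1 and at 14346, 8203 and 14966 against 4919, 6753 and 7619 in MCF10A. The MCF10A groups of VIM did not overlap, but the effect of -0.93 ± 0.27 did not pass, and the difference was 5.02 ± 0.38.

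Most basal keratins and junction genes fell in MCF10AT1, as CDH1 did. Of 8 basal and stress keratins 7 had a called lower difference and 0 a higher one, with a median effect of -4.47 in MCF10AT1 and -0.115 in MCF10A. KRT5 fell by 4.24 ± 0.50 on the log2 scale in MCF10AT1 (difference -5.14 ± 0.70), and its MCF10A groups, which did not overlap, differed by 0.90 ± 0.50, which did not pass. KRT15, a keratin of basal and progenitor cells, was at 91624, 75219.9 and 27151 against 411, 183 and 112 in MCF10AT1 (-9.15 ± 0.83), and KRT6A, a keratin of wounded epithelium, at 29095, 34067 and 33988 against 137, 314 and 394 (-6.12 ± 0.53). KRT17, another stress keratin, had a difference of -4.87 ± 0.40. The closely related keratin genes KRT6A and KRT6B share sequence, so reads may be split between them by the estimate. KRT14 was the member without a called difference (-0.60 ± 0.74): it was 99.2, 77.1 and 43.0 in the MCF10AT1 controls against 2278, 2322 and 2699 in those of MCF10A, and it was lower with METTL3 CRISPR in both lines, in MCF10A at 361, 1275 and 797 (not called) and in MCF10AT1 at 26.6, 6.58 and 11.2 (called). The simple epithelial keratins had 0 called differences of 6 tested (limma), with KRT8 at -0.48 ± 0.55 and KRT18 at -0.14 ± 0.49.

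Of 12 tight junction genes 8 had a called lower difference and of 10 desmosome genes 7, with 0 higher in either list. The claudin CLDN7 was at 5002, 7369.7 and 4331 against 9.95, 11.6 and 14.9 in MCF10AT1 and at 2597, 2597 and 2201 against 1525, 1169 and 1136 in MCF10A, where the effect of -0.96 ± 0.25 did not pass (difference -7.75 ± 0.35). CLDN4, another claudin, had a difference of -6.85 ± 0.67 and CLDN1 of -5.50 ± 1.00. Occludin (OCLN) had a difference of -3.67 ± 0.66. DSG3, a desmosomal cadherin, was at 3494, 1776 and 6641 against 6.87, 15.8 and 15.9 in MCF10AT1 and between 10709 and 16875 in MCF10A (-8.28 ± 0.59). Its partner DSC3 (-6.20 ± 0.83) and the plaque protein DSP (-3.78 ± 0.59) were also called.

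Of 9 hemidesmosome genes tested 2 had a called higher difference and 1 a lower one (background 7.39% and 7.02%), counts too small to set against those shares. Higher calls numbered 1 without MCF10A control a, MCF10A control c, MCF10A METTL3 CRISPR a or c, MCF10AT1 control a or MCF10AT1 METTL3 CRISPR b and 3 without MCF10AT1 control c, and lower calls 2 without MCF10A control c or MCF10AT1 control b. COL17A1, the transmembrane collagen of hemidesmosomes, was at 19824, 24164 and 10015 against 60.4, 80.4 and 66.7 in MCF10AT1 (difference -7.39 ± 0.41). ITGB4, its integrin partner, was at 29884, 51829 and 21514 against 48088, 92425 and 167977 in MCF10AT1, where the groups overlapped, and the call of its difference (2.22 ± 0.60) was lost in 6 of 23 alternative settings. The tetraspanin CD151 rose by 1.23 ± 0.24 with a difference of 1.66 ± 0.33.

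**Figure D4:**
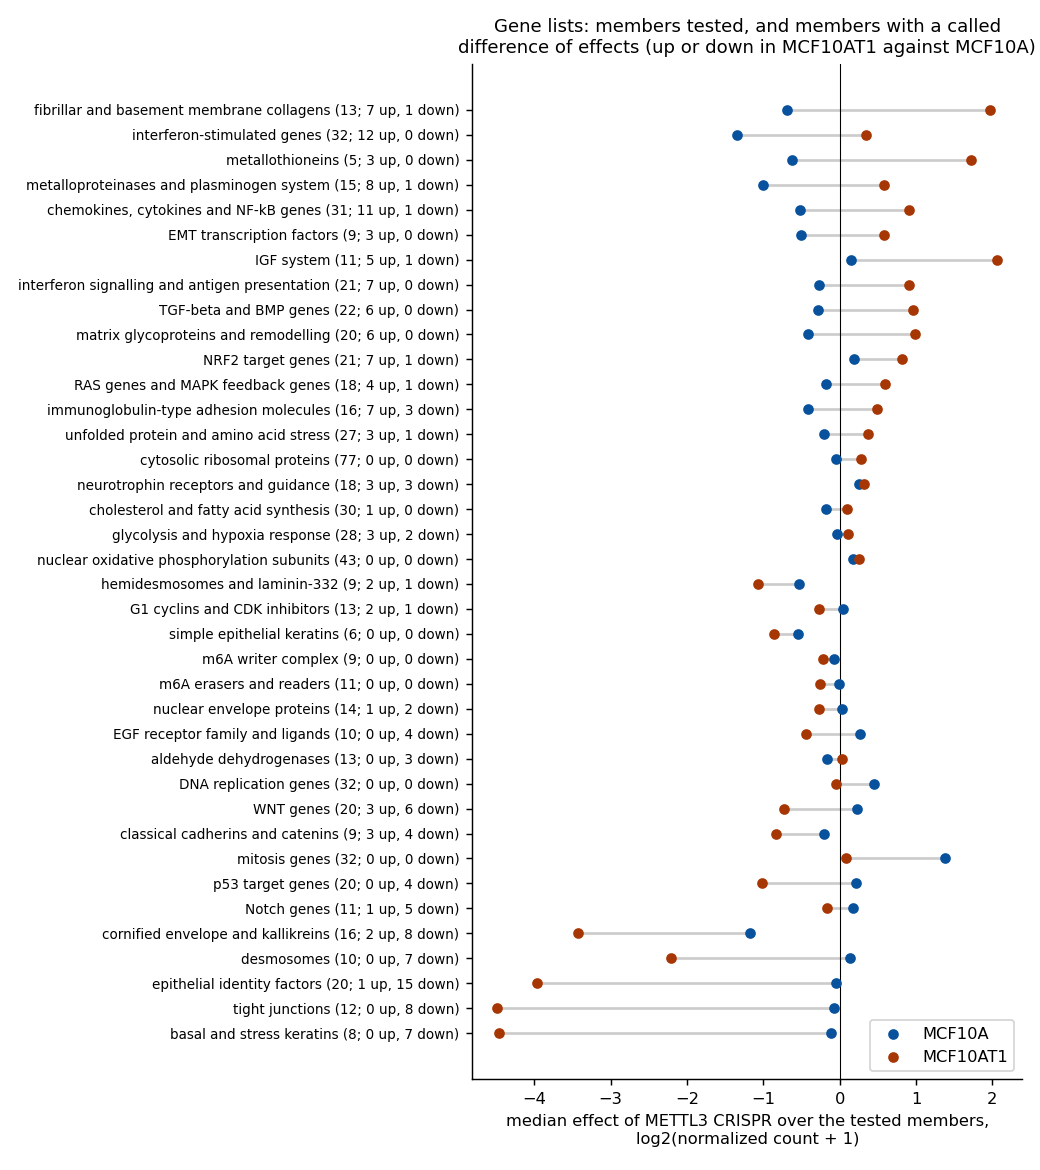
Median log2 effect of METTL3 CRISPR in MCF10A and in MCF10AT1 for each gene list, with the number of members whose difference was called higher and lower. The epithelial identity, basal and stress keratin, tight junction and desmosome lists have medians of -2.20 to -4.49 in MCF10AT1 and of -0.115 to 0.134 in MCF10A.

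Part of the matrix genes rose in MCF10AT1. Of 13 collagens 7 had a called higher difference and 1 a lower one, of 20 matrix glycoprotein genes 6 and 0, and of 15 genes of metalloproteinases and the plasminogen system 8 and 1. The median effect of the collagens was -0.693 in MCF10A and 1.97 in MCF10AT1. FN1, the gene of fibronectin (chr2:215360440-215436073, minus strand), was at 70.5, 65.1 and 81.9 in the MCF10AT1 controls and at 55947, 65869 and 134507 with METTL3 CRISPR. In MCF10A it was at 479, 227 and 386 in the controls and at 206, 179 and 159 with METTL3 CRISPR, and the effect of -0.94 ± 0.34 did not pass. The difference was 11.02 ± 0.48 (adjusted p = 2.53e-07).

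SPARC, a collagen-binding matrix protein, was at 108, 27.2 and 39.5 against 10619.5, 7686 and 8125 in MCF10AT1 (difference 10.04 ± 0.88). COL6A2 was at 0 in all 3 MCF10AT1 controls and at 934, 1156 and 1258 with METTL3 CRISPR, and COL3A1 was at 0, 0 and 2.25 against 1208, 840.0 and 385. For both, every MCF10A library was at or below 2.97. COL1A1 did not share this change: it was at 94.3, 46.2 and 211 against 60.6, 77.0 and 108 in MCF10AT1, with a difference of 0.41 ± 0.65. COL16A1 was the collagen with a lower difference and was called in MCF10A only, at 1139, 313 and 206 against 7375, 2692 and 5069 (-3.40 ± 0.87).

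The protease inhibitors SERPINE2 and TIMP1 also rose. SERPINE2, an inhibitor of thrombin and urokinase, was at 765, 842 and 1451 against 87228, 91485 and 130604 in MCF10AT1 (difference 7.45 ± 0.48), and TIMP1, an inhibitor of metalloproteinases, at 4956, 8108 and 3129 against 100526, 108717 and 81072 (5.37 ± 0.49). In MCF10A their effects were -0.75 ± 0.34 and -1.11 ± 0.35 and did not pass. MMP1, a collagenase, was at 0 in the MCF10AT1 controls and at 17.9, 29.7 and 25.9 with METTL3 CRISPR, below MCF10A control c at 542.

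The 5 MCF10AT1 only genes named for the largest higher difference (CADM3, ACKR1, ICAM1, CSF3 and ITGB3) code for cell surface or secreted proteins. CADM3, a nectin-like adhesion molecule of nerve cells (chr1:159171609-159203313, plus strand), was at 0, 1.81 and 1.72 in the MCF10AT1 controls and at 7779, 11305 and 19143 with METTL3 CRISPR. It was between 1.11 and 27.3 in MCF10A (difference 15.04 ± 0.78). ACKR1, the atypical chemokine receptor that carries the Duffy antigen, lies next to it (chr1:159204875-159206500, plus strand) and was at 0 in all 3 MCF10AT1 controls and at 1276, 1783 and 2137 with METTL3 CRISPR. THY1, a surface protein of fibroblasts and nerve cells, was at 1.91, 1.81 and 0.87 against 2557, 2364 and 1199.5 (11.09 ± 1.48), and the integrin chain ITGB3 at 0, 0 and 2.60 against 88.0, 294 and 634 (11.43 ± 1.30). Of 16 immunoglobulin-type adhesion genes 7 had a higher and 3 a lower difference, where the shares over all tested genes were 7.39% and 7.02%.

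Of 31 chemokine, cytokine and NF-kB genes 11 had a called higher difference and 1 (IL1RN) a lower one, or 15 higher and 3 lower with the letter block within lines. CSF3, the granulocyte colony-stimulating factor, was at 1.97, 1.55 and 2.28 in the MCF10AT1 controls and at 4218, 6303 and 12190.0 with METTL3 CRISPR, and ICAM1, the ligand of leukocyte integrins, at 3.34, 3.12 and 9.21 against 4121, 8163 and 14585. Neither was above 19.2 in MCF10A, and the differences were 11.73 ± 0.94 and 11.74 ± 1.10. IL6 was at 43.5, 11.1 and 35.9 against 756, 483 and 1367 in MCF10AT1 (7.33 ± 0.97), CXCL1 at 155, 76.4 and 78.5 against 4762, 2039 and 2733 (5.71 ± 0.91), and CXCL8 at 141, 50.1 and 278 against 898, 637 and 2057 (5.49 ± 0.89). CXCL8, a neutrophil attractant, was at 604, 752 and 543 against 257, 73.0 and 83.2 in MCF10A, which did not overlap but did not pass (-2.42 ± 0.63).

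Of 10 genes of the EGF receptor family and its ligands 4 had a lower difference and 0 a higher one: EGFR was at 3489, 1985 and 7548 against 381, 602 and 1024 in MCF10AT1 (difference -2.89 ± 0.64) and ERBB3, the kinase-impaired receptor, at 846, 869.8 and 831 against 19.6, 4.83 and 18.2 (-6.25 ± 0.58). Of 22 genes of TGF-beta and BMP signalling 6 had a higher difference and 0 a lower one, among them the ligands BMP7, at 0, 0 and 2.84 against 262, 287 and 212 in MCF10AT1, and TGFB1 (2.22 ± 0.42). LTBP1, which stores latent TGF-beta in the matrix, had a difference of 2.95 ± 0.84, lost in 11 of 23 alternative settings. Of 11 genes of the insulin-like growth factor system 5 were higher and 1 lower (background 7.39% and 7.02%). IGFBP4, a binding protein, was at 25.3, 72.3 and 21.4 against 20188, 19556 and 11948 in MCF10AT1 (10.50 ± 0.83), and IGFBP7 had a difference of 4.39 ± 0.37.

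Of 11 Notch genes 5 had a lower difference and 1 a higher one (background 7.02% and 7.39%), and 2 or 3 were lower in each fit with a library left out, other than MCF10AT1 control b and MCF10AT1 METTL3 CRISPR a and c. The receptor NOTCH1 was at 3292, 1501 and 3870.0 against 626, 607 and 728 in MCF10AT1 and at 1836, 1996 and 1914 against 6525, 3849.7 and 5381 in MCF10A. Its groups did not overlap in either line and moved apart in opposite directions, but the MCF10A effect of 1.42 ± 0.32 missed the threshold (adjusted p = 0.0517), and the difference was -3.46 ± 0.45. The target HES1 was lower (-2.31 ± 0.56) and the target HEY1 higher (3.71 ± 0.64). Of 20 WNT genes 3 had a higher and 6 a lower difference (background 7.39% and 7.02%), with the ligands WNT5A, which acts mostly outside the beta-catenin pathway, at 6.08 ± 0.83 and WNT7A at -4.53 ± 0.70. Of 18 RAS and MAPK feedback genes 4 were higher and 1 lower (background 7.39% and 7.02%), but 7 were higher with the letter block, and 2 in each fit with a library left out other than MCF10A control a and MCF10AT1 control b, control c and METTL3 CRISPR a. SPRY4, a feedback inhibitor of the pathway, had a difference of 3.68 ± 0.74, and EGR1, an immediate early gene, of -2.31 ± 0.55. HRAS itself was at 12707, 20146 and 12438 against 22037, 26021 and 25059 in MCF10AT1 and between 6642 and 10402 in MCF10A, and the difference of 1.00 ± 0.32 did not pass (adjusted p = 0.0592).

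Of 21 NRF2 target genes 7 had a higher difference and 1 a lower one. NQO1, a quinone reductase, was at 2985, 4599 and 2863 against 32436, 36240.2 and 22163 in MCF10AT1 (difference 2.21 ± 0.37). AKR1B10, an aldo-keto reductase, went the other way and was called in MCF10A only, at 42.9, 20.1 and 16.4 against 220.5, 175 and 187 (-2.87 ± 0.69). Of 5 metallothioneins tested 3 had a higher difference: MT2A was at 11789, 36015 and 14568 against 184529.7, 225509 and 141519 in MCF10AT1 (4.39 ± 0.53), and MT1E (3.15 ± 0.57) and MT1X (2.34 ± 0.53) followed. Metallothionein genes are near copies of each other, so their single values are uncertain. Of 20 p53 target genes 4 had a lower difference and 0 a higher one, and 10 were lower with the letter block. The count was 8 without MCF10AT1 control b and 2 without MCF10A control c, MCF10A METTL3 CRISPR b or c, MCF10AT1 control a or MCF10AT1 METTL3 CRISPR b. CDKN1A did not pass (-0.18 ± 0.30).

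Several lists of basic cell functions had 0 called differences by limma: 77 cytosolic ribosomal protein genes, 43 nuclear genes of oxidative phosphorylation, 32 DNA replication genes and 32 mitosis genes. Over all tested genes 14.4% had a called difference. Of the DNA replication genes 29 had an effect above 0 in MCF10A and 29 a difference below 0. Their median difference of -0.515 ran from -0.796 to -0.068 with a library left out. The mitosis genes had a median effect of 1.38 in MCF10A and 0.083 in MCF10AT1, and their median difference of -1.10 was set by single libraries, at -0.187 without MCF10A control c and -2.24 without MCF10A control a. MKI67, the proliferation antigen, was at 1144, 228 and 40.2 in the MCF10A controls and at 262, 1202 and 443 with METTL3 CRISPR, and at 2324, 3187 and 2393 against 6527, 4681 and 708 in MCF10AT1. Its replicates differed more than its groups, and the difference was -1.14 ± 1.5.

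Genes with an effect in MCF10A only numbered 64, of which 24 rose and 40 fell there with METTL3 CRISPR, so that their differences had the opposite sign. Among those that rose in MCF10A, OSR1, a zinc finger factor of kidney and limb development, was at 114, 96.9 and 36.5 in the controls and at 759, 854 and 899 with METTL3 CRISPR. Its MCF10AT1 values were 421, 280.2 and 293 against 204, 182 and 106, which did not overlap but did not pass (-1.04 ± 0.41), and the difference was -4.52 ± 0.57. ARHGAP25, a GTPase-activating protein of blood cells, was at 65.3, 80.0 and 25.2 against 625, 704 and 661 in MCF10A (-5.39 ± 0.88).

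FCGRT, the neonatal Fc receptor, was at 16.8, 4.56 and 0 against 175, 126 and 161 in MCF10A and between 69.8 and 168 in all MCF10AT1 libraries (difference -4.69 ± 1.10), and LARGE2, a glycosyltransferase of dystroglycan, at 28.3, 10.8 and 0 against 268, 134 and 161 (-5.56 ± 1.31). NGFR, the low-affinity neurotrophin receptor and a basal cell marker, was at 38.2, 8.93 and 5.54 against 399, 130.4 and 265 in MCF10A and at 238, 57.9 and 107 against 154, 105 and 123 in MCF10AT1 (-4.0 ± 0.96). For these 3 genes the MCF10A METTL3 CRISPR libraries came to the range of the MCF10AT1 controls or above it.

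Those that fell in MCF10A only, beside IFI6, IFIT1, OASL and IRF7, included C5AR2, a receptor of complement fragment C5a, at 85, 509.8 and 1678 against 14.2, 23.3 and 13.9. The 3 controls of C5AR2 spread widely, and the MCF10AT1 values were at or below 61.6 (difference 6.35 ± 1.3). INSC, an adaptor of spindle orientation, was at 205, 267 and 432 against 3.59, 25.5 and 13.6 in MCF10A, and its difference of 4.73 ± 1.39 was lost in 10 of 23 alternative settings. CDRT4 was at 106, 39.3 and 69.9 against 2.72, 1.42 and 18.5 (5.10 ± 1.05).

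Shared effects were found for 61 genes, 25 higher and 36 lower with METTL3 CRISPR in both lines, and for 14 of them the difference was called as well. Without MCF10A control b, MCF10A control c or MCF10A METTL3 CRISPR a, b or c, 18, 17, 12, 24 and 23 shared genes were left. MMP2, the gelatinase that cleaves type IV collagen, was at 142, 67.2 and 24.2 in the MCF10A controls and at 548, 337 and 312 with METTL3 CRISPR. In MCF10AT1 it was at 69.7, 43.4 and 49.0 in the controls and at 1815, 1643 and 2129.6 with METTL3 CRISPR. The groups did not overlap in either line. The effects were 2.63 ± 0.50 and 5.10 ± 0.50, and the difference of 2.48 ± 0.71 (adjusted p = 0.0363) was lost in 10 of 23 alternative settings.

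MRC2, a collagen uptake receptor, was at 248, 138 and 91.2 against 2312, 974 and 1020.3 in MCF10A and at 878, 682 and 798 against 5509, 8332 and 11495 in MCF10AT1, with effects of 3.17 ± 0.41 and 3.37 ± 0.41 and a difference of 0.20 ± 0.58. PDE4B, a phosphodiesterase of cyclic AMP, had effects of 3.57 ± 0.72 and 4.47 ± 0.72. IGFBP2, another binding protein of the insulin-like growth factors, was at 306, 99.1 and 96.0 against 1664, 591 and 983 in MCF10A and at 1866, 1265 and 907 against 24149, 30335 and 27191 in MCF10AT1. The testis gene ACTL8 and the antisense RNA ELFN1-AS1 also rose in both lines (whether reads were assigned by strand is not given in the sources used here), ELFN1-AS1 from 0, 0 and 4.66 to 65.8, 47.7 and 63.2 in MCF10A and from 0, 0 and 1.71 to 436, 582 and 296 in MCF10AT1.

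Among the shared decreases, CEACAM6, an adhesion molecule of the carcinoembryonic antigen family, was at 638, 686 and 781 against 6.62, 41.5 and 33.9 in MCF10A and at 18.8, 53.4 and 52.2 against 1.04, 1.79 and 0 in MCF10AT1. The effects were -4.96 ± 0.67 and -4.43 ± 0.67 although the controls of MCF10A lay far above those of MCF10AT1. PI3, the elastase inhibitor elafin, had effects of -3.23 ± 0.50 and -4.41 ± 0.50. CD24, a surface mucin of luminal and epithelial cells, was at 2052, 2112 and 1494 against 449, 523 and 486 in MCF10A and at 4805, 2628 and 5603 against 16.3, 10.7 and 9.05 in MCF10AT1. CD24 fell in both lines and fell further in MCF10AT1 (difference -6.41 ± 0.44, adjusted p = 2.07e-06). KLK7, a protease of skin shedding, also fell in both lines with a called difference (-4.38 ± 0.80). For the nonreceptor tyrosine kinase SRMS the call of the difference (-2.24 ± 0.61) was lost in 7 of 23 alternative settings.

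By chromosome, the median difference ran from -0.541 on chromosome 2, where 208 of 1077 genes were called (19.3%), to 0.417 on chromosome 19. In windows of 25 neighbouring tested genes the median lay between -1.045 and 0.842 for the central 98% of 15444 windows. The lowest window, from PCDHA4 to PCDHGB7 in the protocadherin clusters (chr5:140807037-141512975), had a median of -2.18 with 10 genes lower and 0 higher, and clustered protocadherin transcripts share exons. The highest, from C4A to PSMB9 in the MHC (chr6:31982057-32859851), had a median of 1.28 with 8 genes higher. Beside EMD, the neighbour FLNA, an actin cross-linker, was at 15285, 21996 and 10433 against 646, 737 and 1001 in MCF10AT1 (difference -3.61 ± 0.38; chosen after its values were seen), and the next gene on the other side, RPL10, had a difference of 0.618 (adjusted p = 0.351).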

How the data were processed

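RNA of cultured cells was sequenced in 18 libraries, 3 per line and construct, of which the 12 of MCF10A and MCF10AT1 were used. The labels name polyA RNA, while the methods describe a stranded total RNA kit with ribosomal depletion; this was not settled. Per the methods and the submitters' notes, the authors estimated transcript abundance with kallisto 0.46.1 on hg38 and normalized gene counts with DESeq2 1.26.0 in R 4.1.1. The annotation release is not given in the sources used here. The deposited values are normalized counts (a signal divided by a size factor per library, not raw counts), so no count model was used. Their sums do not give read depth, which is not known here. Of the 60579 rows 24646 had no value. Genes were matched by identifier; 39 had no symbol and 294 shared one.

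Values were taken as log2(value + 1) for genes averaging 10 or more and fitted with limma 3.58.1 in R 4.3.3 (1 mean per group, intensity trend, 8 residual and 4.2 prior degrees of freedom). Within-line effects and their difference were called at a two-sided Benjamini-Hochberg adjusted p under 0.05 over all tested genes. Fits were tested on simulated data with 1 SD per gene in all groups and independent libraries. Unequal spreads and a letter block were not simulated. Motifs, lists and figures were made with Python 3.11.15, pandas 2.3.3, NumPy 2.4.6, SciPy 1.17.1 and matplotlib 3.10.9. p-values measure the spread between libraries of 1 clone. The labels do not explain the replicate letters. Within a line, deviations from the group mean were compared between the control and METTL3 CRISPR library of the same letter. They correlated at 0.224, 0.201 and 0.115 in MCF10A and 0.106, 0.274 and 0.478 in MCF10AT1 (across genes, which are not independent). Between lines the b letters correlated at -0.243 among controls. Different letters were not compared, so whether the letters pair the libraries was not settled. The main fit has no block; the sources used here give no model formula of the study.

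Named genes were METTL3 and the PCR genes of the study; per class, 5 opposed genes per orientation and 4 shared genes per direction by the smaller of both effects, and 5 genes per direction of each one-line class by the difference, with a mean of at least 50 and no overlap; and of each list up to 3 called members by the difference plus members chosen for their role. The members and the lists were chosen with earlier results of these data known. Alternatives were other pseudocounts, filters, scalings, spreads, blocks and thresholds, and leaving out each library.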

Additional observations from a re-analysis of the deposited data

Results flagged for a closer look

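The effect of METTL3 CRISPR differed between MCF10AT1 and MCF10A by the test of the difference itself for 2311 genes. Among the opposed genes named, whose effects passed in both lines with opposite sign, the difference was 14.58 for BST2, 14.06 for CDH4, 10.92 for PRSS21, 10.65 for ATOH8, 8.87 for COL6A1, 8.27 for SLC2A3, 6.30 for IGFBP3 and 2.79 for ID1. It was -12.31 for ACMSD, -7.39 for LINC03080, -6.17 for BLNK, -6.01 for PPARGC1A, -5.91 for DUOX1 and -4.03 for SFRP1. These genes were named because of their effects, and each value rests on 1 clone per group.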

How the results depend on the processing

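Of 122 named genes 115 had a called difference, and 95 of these kept their call in all 23 alternatives of scaling, filter, pseudocount, fit, block and library at the same threshold; 209 of the single results lost it. Differences that did not pass changed sign for CEACAM6 (-0.25 without MCF10A METTL3 CRISPR a), MRC2 (-0.05 with equal sums per library, -0.18 without MCF10A control a, -0.02 without MCF10A METTL3 CRISPR b and -0.05 without MCF10AT1 METTL3 CRISPR c) and PDE4B (-0.05 without MCF10AT1 control b); with a library left out they ran from -0.25 to 0.99, -0.18 to 0.61 and -0.05 to 1.49. Scaling all libraries to equal sums moved the median difference from -0.0087 to -0.2585 and the calls to 896 higher and 1297 lower, 742 and 1147 of them MCF10AT1 only. In the joint fit of 18 libraries 166 genes were opposed, 159 shared and 172 MCF10A only. With a variance per group these counts were 157, 120 and 208. With the replicate block within each line they were 137, 134 and 151, and the block shared by both lines gave 93 opposed and 110 MCF10A only. At an adjusted p under 0.01 there were 1110 differences, 16 opposed, 11 shared, 990 MCF10AT1 only and 13 MCF10A only. A mean of at least 50 left 40 MCF10A only, and fitting each line alone left 36 shared. Leaving out 1 library gave 1641 to 3445 differences, 20 to 77 opposed, 12 to 73 shared, 1394 to 2950 MCF10AT1 only and 13 to 101 MCF10A only. The lowest opposed, shared and MCF10A only counts came without MCF10A METTL3 CRISPR a, and the highest difference, MCF10AT1 only, opposed and MCF10A only counts without MCF10AT1 control b; the MCF10A only counts without MCF10A control b, control c, METTL3 CRISPR b and METTL3 CRISPR c were 27, 18, 26 and 26. The cause was not tested. Low normalized counts carry more counting error, which the deposited values do not give.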
